A study of Mus musculus with 13 samples.

Results

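The genes of 9 nuclear receptors of lipid and xenobiotic metabolism and of 1 coactivator were followed in mouse liver: Ppara, Ppard, Pparg, Rxra, Rxrb, Nr1i2, Nr1i3, Hnf4a, Esrra and Ppargc1a. Members were taken by gene name, as every probe that the scanner files assign to 1 of these 10 genes. All 10 were found, with 15 probes among the 39429 of the array that are not control spots, and all 15 were among the 25030 probes tested, which stand for 19578 genes or unnamed transcripts. Liver RNA of female C57BL6 mice aged 12 weeks was hybridised to 13 one-colour arrays. In 5 mice the high-fat high-sucrose diet, labelled HFHS and called a high fat diet in the series text, was given with vehicle (HFHS). In 5 mice the standard diet, labelled ST, carried a mixture of 4 pollutants that the sources used here do not name (pollutants). In 3 mice the standard diet was given with vehicle (ST vehicle), the control of both. The series text can also be read to put the mixture into the high fat diet, but all 5 pollutant mice carry the ST label, which was followed. The series sets a pollutant mixture beside the HFHS diet. The receptors were compared in HFHS against ST vehicle, in pollutants against ST vehicle, and in HFHS against pollutants.

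Nuclear receptors are transcription factors whose activity is set by small lipid-soluble ligands. PPARalpha (Ppara), PPARdelta (Ppard) and PPARgamma (Pparg) bind fatty acids and their derivatives, and like PXR (Nr1i2) and CAR (Nr1i3), the liver's sensors of drugs and pollutants, they bind DNA as heterodimers with a retinoid X receptor such as RXRalpha (Rxra) or RXRbeta (Rxrb). HNF4alpha (Hnf4a) maintains hepatocyte gene expression, and ERRalpha (Esrra) is an orphan receptor that works with the coactivator PGC-1alpha (Ppargc1a) on genes of mitochondrial energy metabolism. Receptor activity depends on ligand and protein as well as on transcript level, and only the transcript was measured here.

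Esrra and Nr1i3 were the members past the test in any comparison, and their sequences are shown for that reason. The Nr1i3 probes lie on mm9 at chr1:173147776-173147835 (A_51_P358256) and chr1:173148765-173148824 (A_55_P2035824), in the gene's own orientation on the plus strand, and do not overlap. Below the probes stand the 300-base promoter windows of both genes, 250 bases before and 50 after the annotated start, from RefSeq on GRCm38.p6: Nr1i3 at chr1:171213720-171214019 on the plus strand and Esrra at chr19:6921759-6922058 on the minus strand. Capitals mark the E-box CACGTG, the site of clock and related factors.
Nr1i3 probe A_51_P358256: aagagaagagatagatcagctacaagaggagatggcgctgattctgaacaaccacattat
Nr1i3 probe A_55_P2035824: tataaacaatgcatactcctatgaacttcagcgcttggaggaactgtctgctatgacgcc
Nr1i3 promoter: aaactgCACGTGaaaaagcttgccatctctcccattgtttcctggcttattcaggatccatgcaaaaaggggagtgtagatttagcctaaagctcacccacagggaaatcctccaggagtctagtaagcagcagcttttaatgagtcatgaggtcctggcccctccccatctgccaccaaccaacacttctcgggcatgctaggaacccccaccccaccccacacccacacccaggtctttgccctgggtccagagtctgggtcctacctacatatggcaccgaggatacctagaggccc
Esrra promoter: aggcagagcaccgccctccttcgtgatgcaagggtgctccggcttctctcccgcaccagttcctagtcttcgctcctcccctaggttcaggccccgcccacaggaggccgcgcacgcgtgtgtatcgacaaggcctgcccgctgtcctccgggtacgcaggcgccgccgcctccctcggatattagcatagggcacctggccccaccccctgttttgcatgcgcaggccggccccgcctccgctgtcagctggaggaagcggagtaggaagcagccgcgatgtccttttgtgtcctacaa

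All 10 genes had a promoter window in the RefSeq table, 15 windows in total, and 4 motifs were searched on both strands. These were the nuclear receptor half-site AGGTCA, the estrogen-related receptor element TNAAGGTCA and the direct repeat of the half-site with 1 spacer base, both of which contain the half-site, and the E-box CACGTG. The Nr1i3 window held 1 E-box, at -244 to -239 from the start, a motif present in 7.15% of the 32851 mouse windows of that length. The Esrra window held none of the 4 motifs. Half-sites, present in 16.3% of all windows, were found at -28 to -23 and at -9 to -4 in 2 of the Pparg windows, and at -87 to -82 and -48 to -43 in 1 Rxra window. TNAAGGTCA and the direct repeat, in 1.28% and 0.0396% of all windows, were in none of the 15. These matches describe the letters in these windows only.

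The arrays were of similar depth, with a 75th percentile of the processed signal between 782 and 1354 intensity units and 62.84% to 69.51% of probes well above background. All 15 receptor probes were well above background on all 13 arrays. Levels are given as the log2 of the processed signal minus the array's 75th percentile, so that 0 is the level of that percentile and a difference of 1 is 2-fold. The arrays lie on 5 slides, each with 1 HFHS and 1 pollutant array, and slides 1, 2 and 5 also hold 1 ST vehicle array each. The 8 hepatocyte markers averaged 6.70 to 7.01 in HFHS, 6.93 to 7.07 in pollutants and 6.98 to 7.10 in ST vehicle, as a liver label requires. The 9 measured pancreatic acinar markers stood apart on HFHS replicates 3, 4 and 5, at mean levels of 4.69, 3.44 and 6.84, against -2.66 and -2.86 on HFHS replicates 1 and 2, -3.09 to -1.65 in pollutants and -2.87 to -2.47 in ST vehicle. The 4 measured erythroid markers averaged 2.04 to 2.72 in HFHS, 2.41 to 2.97 in pollutants and 1.98 to 2.32 in ST vehicle, so that every pollutant array lay above ST vehicle, and 4 of 4 differences were positive against ST vehicle in both groups, none called. The 6 measured cholangiocyte markers averaged -2.86 to -2.57 in HFHS, -2.78 to -1.98 in pollutants and -2.34 to -2.18 in ST vehicle, with every HFHS array below ST vehicle and 6 of 6 differences negative, none called. The part of these cell types in the receptor differences was not tested. In bulk tissue, fewer cells of a type and less RNA per cell cannot be told apart. The p-values measure the spread between these mice.

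In HFHS against ST vehicle, Esrra was higher by 0.57 ± 0.10 on the log2 scale (1.48-fold, SE, n = 5 and 3) and no other member passed limma's test at an adjusted p under 0.05. That is 1 of 15 probes, where 0.627% of all probes tested passed. Differences were positive for 12 of the 15 probes and ran from -0.12 (Nr1i2) to 0.57, with a median of 0.19 against -0.02 over all probes tested. Before adjustment 3 probes had p under 0.05, those of Esrra, Pparg and the third Ppara probe, all higher in HFHS, where 12% of all probes did so, 5.02% higher and 6.96% lower. The same 3 had HFHS arrays that did not overlap ST vehicle, against 9.17% of all probes.

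In pollutants against ST vehicle, Nr1i3 and Esrra were higher, Nr1i3 by 0.53 ± 0.11 (1.44-fold) on its second probe and Esrra by 0.52 ± 0.10 (1.43-fold). These were 2 of 15 probes, where 0.983% of all probes passed. Positive differences were found for 14 of 15 probes, from -0.01 for Ppard to 0.53, with a median of 0.26 against -0.01 over all probes. Before adjustment 6 probes were past 0.05, all higher in pollutants, those of Esrra, both of Nr1i3, 2 of Ppara and the second of Ppargc1a, where 12.2% of all probes were, 5.95% higher and 6.27% lower. Both Nr1i3 probes, Esrra and the third Ppara probe did not overlap between the groups, 4 of 15 against 8.43% of all probes. The comparison uses the same 3 ST vehicle arrays as the one before it, so the values of the comparisons are given side by side and their likeness is not counted as a result.

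In HFHS against pollutants, 0 of 15 receptor probes passed, where 3.42% of all probes did. The nearest was the second Nr1i3 probe, lower in HFHS by 0.34 (adjusted p = 0.0663 in limma). Before adjustment 5 probes were past 0.05, all lower in HFHS, where 18.4% of all probes were, 7.79% higher and 10.6% lower. They were those of Nr1i2, both of Nr1i3, Hnf4a and the second of Ppargc1a. Only the second Nr1i3 probe did not overlap between these groups, 1 of 15 against 6.74% of all probes. The differences ran from -0.43 (Nr1i2) to 0.14 (Pparg) with a median of -0.06.

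**Figure D1:**
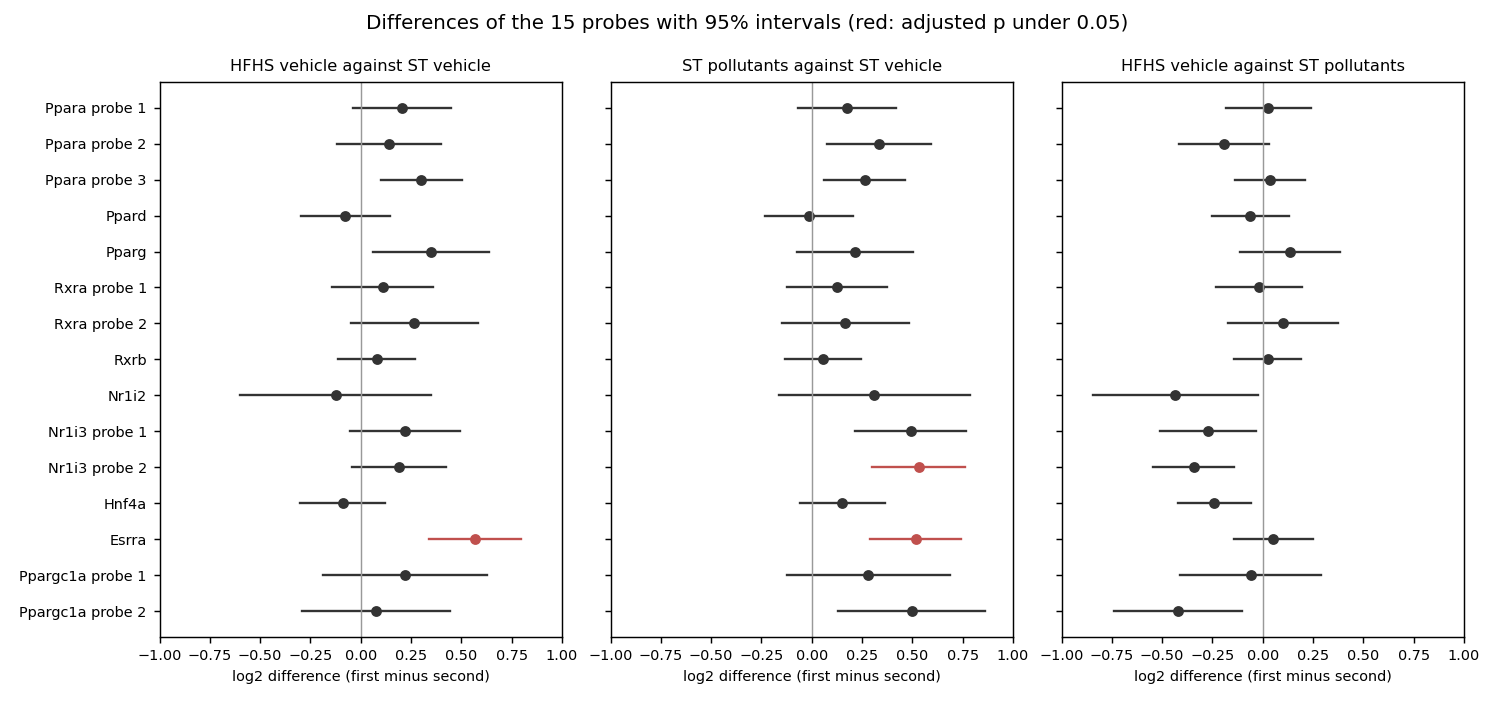
Log2 differences of the 15 probes (points) with their 95% intervals from limma (lines) in the 3 comparisons, each as first minus second group, with probes of a gene numbered by falling mean signal and red for an adjusted p under 0.05. Esrra is red against ST vehicle in both tested groups, the second Nr1i3 probe is red for pollutants alone, and no probe is red in HFHS against pollutants.

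Esrra, the gene of ERRalpha, was measured by 1 probe on mm9 chr19:6985503-6985562, minus strand. Its log2 levels were 3.01, 3.18, 3.11, 3.08 and 3.12 in HFHS, 2.84, 3.03, 3.12, 3.25 and 3.01 in pollutants, and 2.60, 2.68 and 2.32 in ST vehicle. Every HFHS and pollutant array lay above all 3 ST vehicle arrays, and the HFHS and pollutant arrays overlapped. The group means were 3.10 ± 0.06 in HFHS and 3.05 ± 0.15 in pollutants (SD, n = 5 each), and 2.53 ± 0.19 in ST vehicle (SD, n = 3). limma gave an adjusted p of 0.0307 for HFHS and of 0.0427 for pollutants against ST vehicle. Between HFHS and pollutants the difference was 0.05 with a 95% interval of -0.15 to 0.25 (adjusted p = 0.878).

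The Esrra difference had the same sign on each slide that held the groups. HFHS exceeded ST vehicle by 0.42, 0.50 and 0.80 within slides 1, 2 and 5, and pollutants exceeded it by 0.24, 0.35 and 0.69. With slide as a block in the limma model the differences were 0.53 and 0.47 and neither passed (adjusted p = 0.103 and 0.119). ST vehicle replicate 3, on slide 5, had the lowest Esrra level of all 13 arrays, and without it the differences were 0.46 and 0.41 (adjusted p = 0.136 and 0.192). Without HFHS replicates 3, 4 and 5, the arrays with pancreatic transcripts, the HFHS difference was 0.57 (adjusted p = 0.242), as large as with them.

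Nr1i3, the gene of CAR, was higher in pollutants than in ST vehicle on its second probe, and its first gave a difference of like size that did not pass. The erythroid markers also differed in that comparison (median difference 0.52). Of these, 3 of 4 were higher at an unadjusted p under 0.05, where 5.95% of all probes were. In HFHS against ST vehicle their median was 0.31, with 4 of 4 positive. Their part in the Nr1i3 values was not tested. On the second probe, A_51_P358256, log2 levels were 2.85, 2.76, 2.91, 2.89 and 2.93 in HFHS, 3.16, 3.07, 3.34, 3.40 and 3.09 in pollutants, and 2.77, 2.82 and 2.45 in ST vehicle. Every pollutant array was above every array of the other groups, and HFHS overlapped ST vehicle. On the first probe, A_55_P2035824, log2 levels were 4.10, 3.74, 4.06, 3.82 and 3.99 in HFHS, 4.35, 4.06, 4.34, 4.26 and 4.07 in pollutants, and 3.90, 3.82 and 3.45 in ST vehicle. Here too the pollutant arrays all exceeded ST vehicle, while 2 of the pollutant arrays lay within the range of HFHS. Over the 13 arrays the probes had a Pearson r of 0.91, and 0.74 after group means were removed, as a description of probes that share their arrays.

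For pollutants against ST vehicle the second Nr1i3 probe had an adjusted p of 0.0426 in limma and the first, at 0.49 ± 0.13, had 0.0975. The differences within slides 1, 2 and 5 were 0.39, 0.25 and 0.64 on the second probe and 0.45, 0.24 and 0.62 on the first. With slide as a block the second probe's difference was 0.47 (adjusted p = 0.127), and without ST vehicle replicate 3, again the lowest array, it was 0.41 (adjusted p = 0.184). HFHS against ST vehicle gave 0.19 ± 0.11 and 0.22 ± 0.13 on the second and first probe (adjusted p = 0.559 and 0.569). HFHS lay below pollutants on all 5 slides, by 0.16 to 0.50 on the second probe and by 0.08 to 0.44 on the first. The test of that difference gave adjusted p-values of 0.0663 and 0.204, so a difference in the Nr1i3 response between diet and mixture was not established.

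**Figure D2:**
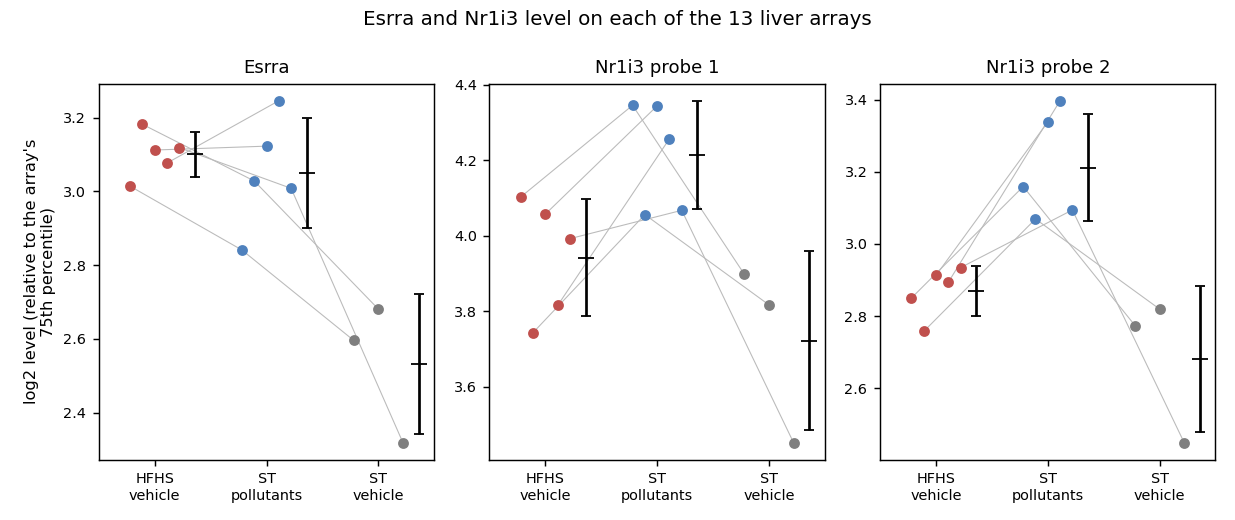
Log2 level relative to the array's 75th percentile for Esrra and both Nr1i3 probes on each array (points), with group mean and SD (black) and grey lines joining arrays of 1 slide, in HFHS and pollutants (n = 5 each) and ST vehicle (n = 3). Esrra is above all ST vehicle arrays in both other groups, and Nr1i3 is above them on all 5 pollutant arrays.

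Nr1i2, the gene of the xenobiotic receptor PXR, had the widest errors of the 15 probes. Its log2 levels were 2.33, 2.35, 2.35, 2.59 and 1.91 in HFHS, 3.20, 2.97, 2.56, 2.48 and 2.49 in pollutants, and 2.52, 2.80 and 1.98 in ST vehicle. All 3 groups overlapped. HFHS was at -0.12 ± 0.22 and pollutants at 0.31 ± 0.22 against ST vehicle (adjusted p = 0.952 and 0.678). HFHS against pollutants gave -0.43 ± 0.19 (unadjusted p = 0.04, adjusted p = 0.244 in limma), with differences within slides from -0.87 to 0.10, negative on 4 of 5. The 95% intervals against ST vehicle were -0.60 to 0.35 for HFHS and -0.16 to 0.79 for pollutants, and the second includes the 0.53 seen for Nr1i3.

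Ppara, the gene of PPARalpha, which drives hepatic fatty acid oxidation in fasting, had 3 probes and a positive difference on each. HFHS exceeded ST vehicle by 0.20 ± 0.11, 0.14 ± 0.12 and 0.30 ± 0.09, and pollutants exceeded it by 0.18 ± 0.11, 0.33 ± 0.12 and 0.26 ± 0.09. None of these passed, the lowest adjusted p being 0.205. The third probe, A_55_P2071601, separated ST vehicle from both other groups, which overlapped each other. Its log2 levels were 3.10, 3.13, 3.05, 3.04 and 3.27 in HFHS, 3.22, 2.89, 3.02, 3.08 and 3.19 in pollutants, and 2.85, 2.72 and 2.88 in ST vehicle. The lowest pollutant array, at 2.89, lay just above the highest ST vehicle array, at 2.88. On the first and second probe the groups overlapped. The probes followed each other unevenly over the 13 arrays, with r of 0.77, 0.66 and 0.42 between pairs.

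Pparg, the gene of the fat-storage receptor PPARgamma, was measured by a probe spotted 10 times on each array. Log2 levels were 1.40, 1.73, 1.47, 1.50 and 1.51 in HFHS, 1.52, 1.12, 1.42, 1.39 and 1.48 in pollutants, and 1.35, 1.33 and 0.83 in ST vehicle. The HFHS arrays all exceeded ST vehicle, the closest pair by under 0.05, while pollutants overlapped it. The HFHS difference of 0.35 ± 0.13 did not pass (adjusted p = 0.296) and depended on ST vehicle replicate 3, without which it was 0.18. Within slides 1, 2 and 5 it was 0.05, 0.39 and 0.68. Ppard, the gene of the broadly expressed PPARdelta, differed by -0.08 in HFHS and -0.01 in pollutants, with 95% intervals of -0.30 to 0.14 and -0.23 to 0.21.

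The RXR genes, which encode the shared heterodimer partners, did not pass in any comparison. Rxrb had the narrowest errors of the 15 probes, with group means of 3.23 ± 0.10 in HFHS, 3.21 ± 0.11 in pollutants and 3.15 ± 0.09 in ST vehicle (SD). Its 95% interval was -0.11 to 0.27 for HFHS and -0.14 to 0.25 for pollutants against ST vehicle. The Rxra probes gave 0.11 ± 0.11 and 0.27 ± 0.14 in HFHS and 0.13 ± 0.11 and 0.17 ± 0.14 in pollutants. They did not follow each other over the arrays (r = -0.29), so their values cannot be pooled into a level of Rxra.

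Hnf4a, the hepatocyte regulator, lay lower in HFHS than in pollutants on all 5 slides, by 0.18 to 0.32. Its log2 levels were 5.81, 5.78, 5.90, 6.12 and 5.83 in HFHS, 6.13, 6.04, 6.16, 6.31 and 6.02 in pollutants, and 6.01, 6.03 and 5.89 in ST vehicle. HFHS replicate 4 lay among the pollutant arrays, so the groups overlapped. The difference of -0.24 ± 0.08 had an unadjusted p of 0.0144 and an adjusted p of 0.142. The hepatocyte markers were lower in HFHS than in pollutants in 8 of 8 cases (median -0.11, none called), and their part in the Hnf4a difference was not tested. Against ST vehicle Hnf4a was at -0.09 in HFHS (95% interval -0.30 to 0.12) and at 0.15 in pollutants (-0.06 to 0.36).

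Ppargc1a, the gene of the coactivator PGC-1alpha, differed by 0.22 ± 0.19 and 0.08 ± 0.17 on its first and second probe in HFHS, and by 0.28 ± 0.19 and 0.50 ± 0.17 in pollutants, against ST vehicle. None passed (adjusted p = 0.793 and 0.972 for HFHS, 0.646 and 0.22 for pollutants). The pollutant arrays were the most spread, from 0.08 to 0.96 on the first probe, against 0.27 to 0.74 in HFHS and 0.15 to 0.52 in ST vehicle. On the second, dim probe HFHS was below pollutants by 0.42 ± 0.15 (unadjusted p = 0.0133, adjusted p = 0.138) and on all 5 slides, by 0.10 to 0.82. The first probe gave -0.06 ± 0.16 and had no common sign over the slides. The 5 measured skeletal muscle markers, of a tissue rich in Ppargc1a, averaged -4.57 to -0.18 in HFHS, -2.96 to -0.04 in pollutants and -3.27 to -0.49 in ST vehicle. HFHS replicate 3 was at -0.18 and the other HFHS arrays at -4.57 to -3.53. In HFHS against pollutants 5 of 5 differences were negative (median -2.63), 4 with an unadjusted p under 0.05, beside 18.4% of all probes, and none called. Against ST vehicle the medians were -2.11 in HFHS and 0.51 in pollutants. The part of these markers in the Ppargc1a values was not tested.

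**Figure D3:**
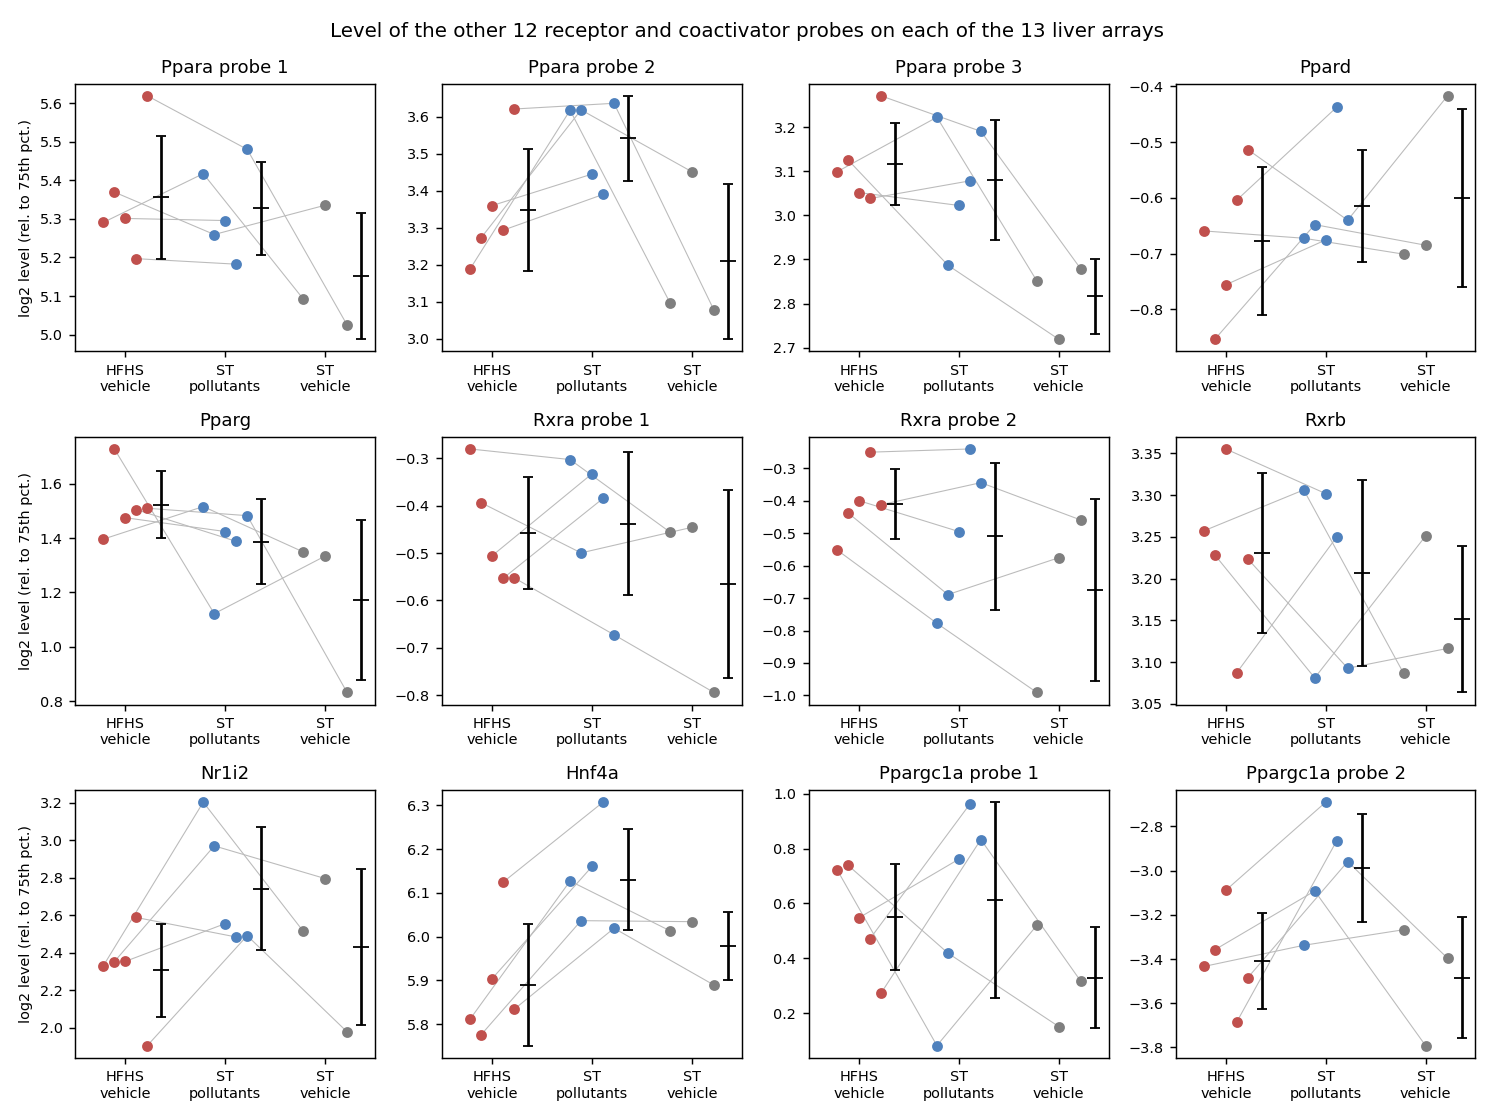
Log2 level relative to the array's 75th percentile for the other 12 probes on each array (points), with group mean and SD (black) and grey lines joining arrays of 1 slide, in HFHS and pollutants (n = 5 each) and ST vehicle (n = 3). Most groups overlap, the third Ppara probe separates ST vehicle from the others, and Hnf4a in HFHS lies below pollutants along each slide line.

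The genes these receptors regulate were read from lists of textbook targets, each gene by its brightest tested probe. Of 35 PPARalpha targets, 0 were called in HFHS against ST vehicle and 2 rose in pollutants, where 0.627% and 0.983% of all probes were called. Before adjustment 7 were higher and 1 was lower in HFHS at p under 0.05, where 5.02% and 6.96% of all probes were. In pollutants 18 were higher and 0 lower at that p, where 5.95% and 6.27% of all probes were. In HFHS 27 of 35 differences were positive (median 0.17), and in pollutants 32 of 35 (median 0.38), beside medians of -0.02 and -0.01 over all probes. The 2 that rose were Acot4, a peroxisomal acyl-CoA thioesterase (0.95 ± 0.17, adjusted p = 0.0293), and Slc22a5, the carnitine transporter (0.84 ± 0.18, adjusted p = 0.0485). With slide as a block Slc22a5 passed and Acot4 did not (adjusted p = 0.0156 and 0.0791). Cyp4a10 and Cyp4a14, fatty acid hydroxylases used as readouts of PPARalpha activity, were at 0.63 and 0.68 in HFHS and 0.81 and 1.01 in pollutants, and neither passed. Cpt1a, which admits fatty acids to mitochondrial oxidation, was at 0.09 in HFHS and 0.41 in pollutants and did not pass in either.

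Of the 35 PPARalpha targets, 2 were called in HFHS against pollutants, where 3.42% of all probes were. Before adjustment 0 were higher and 7 lower at p under 0.05, where 7.79% and 10.6% of all probes were. The called targets were Slc22a5, lower by 0.66 in HFHS than in pollutants, and Eci2, an enoyl-CoA isomerase, lower by 0.35 (adjusted p = 0.0366 and 0.0403). Of the 35 differences 30 were negative (median -0.18, beside -0.004 over all probes). With slide as a block Slc22a5 still passed and Eci2 did not (adjusted p = 0.0169 and 0.0617), and without HFHS replicates 3, 4 and 5 neither did, at larger differences of -0.76 and -0.41 (0.0899 and 0.14). Pdk4, a fasting-induced kinase, did not pass at -1.12 ± 0.43 (adjusted p = 0.183). The hormone gene Fgf21 varied too widely to order HFHS and pollutants, with an SE of 0.53 around -0.75.

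Of 14 measured PPARgamma targets, 2 were called in HFHS against ST vehicle, where 0.627% of all probes were. Both rose: Mogat1, a monoacylglycerol acyltransferase (2.58 ± 0.49, adjusted p = 0.0394), and the fatty acid uptake protein Cd36 (0.93 ± 0.18, adjusted p = 0.0476). The list's median was -0.04, with 8 of 14 differences negative. Cd36 did not pass with slide as a block (0.90, adjusted p = 0.152), and without HFHS replicates 3, 4 and 5 neither did, at differences as large as with them (Mogat1 3.37, adjusted p = 0.0641, and Cd36 0.96, adjusted p = 0.253). In pollutants 0 of 14 passed, beside 0.983% of all probes. An unadjusted p under 0.05 was found for 4 of the 14, beside 12.2% of all probes (list median 0.28). Cidec, of the lipid droplet coat, was at 0.46 ± 0.45 in HFHS and 1.32 ± 0.45 in pollutants, while its other probe gave 0.13 and 0.32. In HFHS against pollutants 1 of 14 was called, where 3.42% of all probes were. This was Pnpla2, the triglyceride lipase ATGL, lower in HFHS by 0.64 ± 0.10 (adjusted p = 0.00669) and called also with slide as a block (0.0172). The list shares Plin1, Fabp4 and Adipoq with the adipocyte markers, whose 5 measured genes averaged -3.45 to -2.57 in HFHS, -3.61 to -0.60 in pollutants and -3.04 to -1.38 in ST vehicle; their part in these values was not tested.

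Among 26 measured CAR and PXR targets, Cyp2b10, the standard CAR readout, was at 0.20 ± 0.15 in HFHS and -0.03 ± 0.15 in pollutants against ST vehicle, and Cyp3a11, that of PXR, at 0.06 ± 0.16 and 0.10 ± 0.16, none past the test. In pollutants 2 of 26 were called, where 0.983% of all probes were. Both rose: Alas1, the first enzyme of heme synthesis (1.88 ± 0.21, 3.67-fold, adjusted p = 0.00437), and Por, the electron donor of cytochromes P450 (0.87 ± 0.16, adjusted p = 0.0335). With slide as a block Por was at 0.92 (adjusted p = 0.0768). The list's median in pollutants was 0.01, and 4 were higher and 2 lower at an unadjusted p under 0.05, where 5.95% and 6.27% of all probes were. In HFHS against ST vehicle 2 of 26 were called, where 0.627% of all probes were. Alas1 rose by 1.48 ± 0.21 (adjusted p = 0.0108) and Ces2a, a carboxylesterase, fell by 0.73 ± 0.12 (adjusted p = 0.0224). Before adjustment 3 were higher and 9 lower at p under 0.05, where 5.02% and 6.96% of all probes were. Of the 26 differences 16 were negative, with a median of -0.29. In HFHS against pollutants 1 was higher and 11 lower at an unadjusted p under 0.05, where 7.79% and 10.6% of all probes were (list median -0.24). There 1 of 26 was called, beside 3.42% of all probes: Ces2a, lower in HFHS by 0.72 ± 0.11 (adjusted p = 0.00669). Both Alas1 and Ces2a passed with slide as a block in these comparisons, and without HFHS replicates 3, 4 and 5 the HFHS differences against ST vehicle were 1.29 and -0.87 (adjusted p = 0.146 and 0.112).

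Of 23 HNF4A targets, 1 was called in HFHS against ST vehicle, where 0.627% of all probes were. It was Cyp7a1, which makes bile acids from cholesterol at the pathway's limiting step. Cyp7a1 rose by 1.99 ± 0.29 (3.96-fold, adjusted p = 0.0124), and without HFHS replicates 3, 4 and 5 by 1.88 (adjusted p = 0.146). In pollutants it was at 1.14 ± 0.29 (adjusted p = 0.0981). There 0 of 23 passed, beside 0.983% of all probes, and 3 had an unadjusted p under 0.05, beside 12.2% of all probes. Pck1, the gluconeogenic PEPCK, was the 1 of 23 called in HFHS against pollutants, where 3.42% of all probes were. It was 2.14-fold lower in HFHS than in pollutants (SE 0.20 on the log2 scale, adjusted p = 0.0118) and kept that call with slide as a block. Apoa4, G6pc and Cyp8b1, of lipoproteins, glucose output and bile acid hydroxylation, were at 0.99, -0.66 and -0.18 in HFHS and at 0.68, -0.08 and 0.02 in pollutants, and did not pass. The list's medians were -0.08, -0.01 and -0.10 in the 3 comparisons, and it shares Alb, Ttr, Apoa1 and Tat with the hepatocyte markers.

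Of 19 measured ERRalpha and PGC-1alpha targets, 0 were called in any of the 3 comparisons, where 0.627%, 0.983% and 3.42% of all probes were. At shares this low, 0 calls among 19 genes do not set these targets apart from other genes. Esrra itself was called in 2 of the 3 comparisons. Before adjustment 2, 3 and 0 of the 19 had p under 0.05, in the order of the comparisons above, beside 12%, 12.2% and 18.4% of all probes. The medians were -0.003, 0.008 and -0.03, close to those over all probes. Cycs, cytochrome c, was at 0.24 ± 0.15 in HFHS and -0.03 ± 0.15 in pollutants, and Idh3a, of the citric acid cycle, at -0.01 ± 0.12 and 0.06 ± 0.12.

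Of 28 other nuclear receptors, 0 passed limma's test in any comparison, where 0.627%, 0.983% and 3.42% of all probes did, so the 0 does not set them apart. An unadjusted p under 0.05 was found for 5, 7 and 4 of them, beside 12%, 12.2% and 18.4% of all probes. Nr1h3 (LXRalpha, a sterol sensor) was at 0.22 ± 0.09 in HFHS and -0.00 ± 0.09 in pollutants, Nr1h4 (FXR, the bile acid receptor) at 0.24 ± 0.12 and 0.25 ± 0.12, and Nr0b2 (SHP, its target and a repressor) at -0.07 ± 0.35 and -0.48 ± 0.35. Esrrg, the gene of the related ERRgamma, was at 0.29 ± 0.15 and 0.34 ± 0.15. Of 18 coregulators 1 was called, in HFHS against pollutants alone, where 3.42% of all probes were. This was Lpin1, a coactivator of PPARalpha with PGC-1alpha and a phosphatidate phosphatase. It was lower by 1.26 ± 0.19 in HFHS than in pollutants (2.40-fold, adjusted p = 0.00669), its other probe at -0.88. Without HFHS replicates 3, 4 and 5 the difference was -1.26 (adjusted p = 0.0753). Ppargc1b, the gene of PGC-1beta, was at 0.32 ± 0.15 and 0.49 ± 0.15 and did not pass, and the corepressor gene Ncor1 was at -0.11 ± 0.10 in HFHS.

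**Figure D4:**
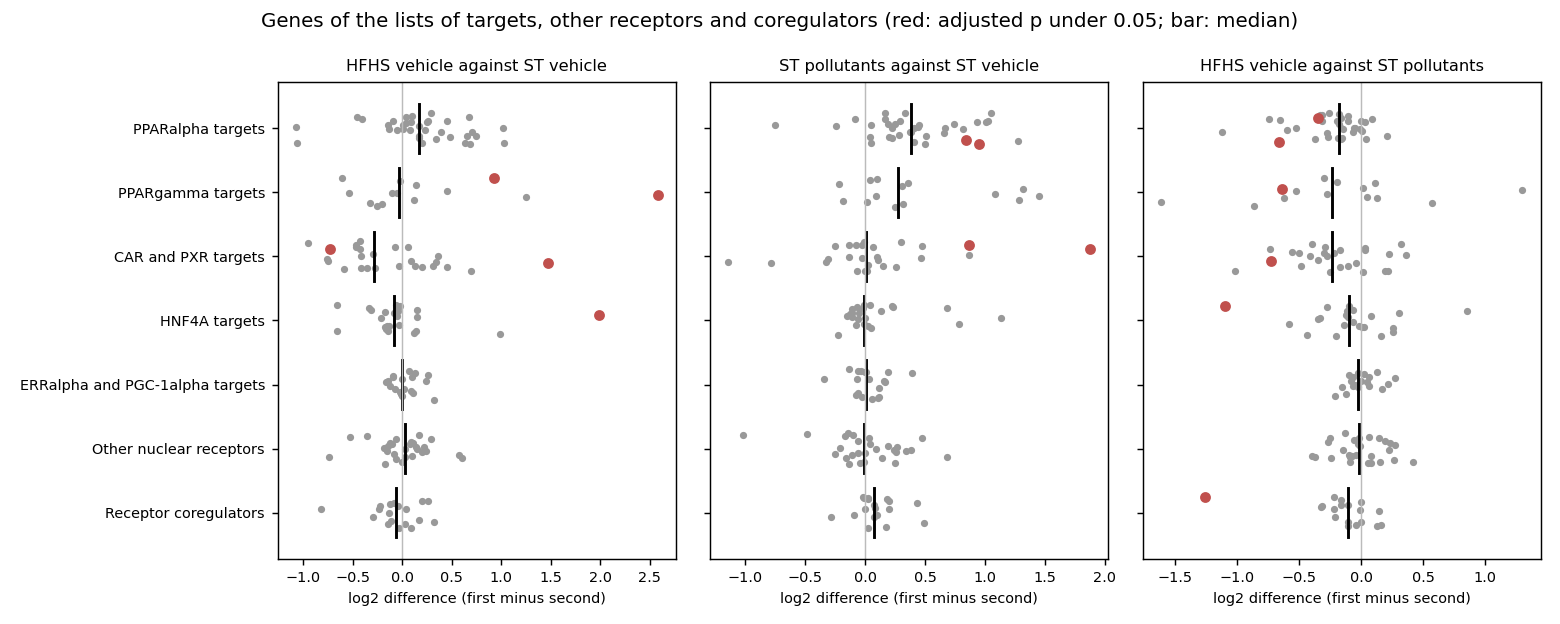
Log2 differences (first minus second group) of the measured genes of 7 lists in the 3 comparisons, 1 point per gene by its brightest tested probe, red for an adjusted p under 0.05 in limma, with a black bar at the list's median. PPARalpha targets lie to the right in pollutants against ST vehicle (median 0.38), CAR and PXR targets to the left in HFHS (median -0.29), and ERRalpha targets centre on 0 in each comparison.

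The genes whose level followed each receptor most closely over the 13 arrays, among 15641 genes with a symbol, were named as a description, since all points share arrays, slides and groups. For Esrra they were Per2 (r = 0.93), Slc5a6 (0.92) and Acsm3 (0.91), and after group means were removed r was 0.74, 0.61 and 0.79. Per2, a repressor of the circadian clock, was higher than in ST vehicle by 1.63 ± 0.29 in HFHS (adjusted p = 0.0255) and 1.85 ± 0.29 in pollutants (adjusted p = 0.0149), as was Slc5a6, a vitamin transporter, by 1.08 ± 0.16 and 1.16 ± 0.16 (adjusted p = 0.0108 and 0.00698). Both were picked by r with Esrra with group means left in. The choice favours group differences in the direction of Esrra, so these differences are not counted as a result. The labels used here give no time of day of sampling, and its part in the Esrra values was not tested. For Nr1i3 they were Vps26a, Eif4b and Cdv3 (0.89, 0.88 and 0.88, or 0.87, 0.70 and 0.67 without group means). For Pparg the closest was Ap1ar (0.97), for Nr1i2 Sar1a (0.96), for Hnf4a Axin1 (0.93), for Ppard Rdh12 (0.92), for Rxra Man2b1 (0.90), for Ppara Txndc17 (0.89), and for Rxrb and Ppargc1a Aplp2 and Arhgef40 (0.84 each). Among the members, Esrra and the second Nr1i3 probe had r of 0.66, and 0.74 without group means, but Esrra and the first Nr1i3 probe had 0.58 and 0.26. Esrra and the first Ppargc1a probe had 0.55 and 0.48.

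**Figure D5:**
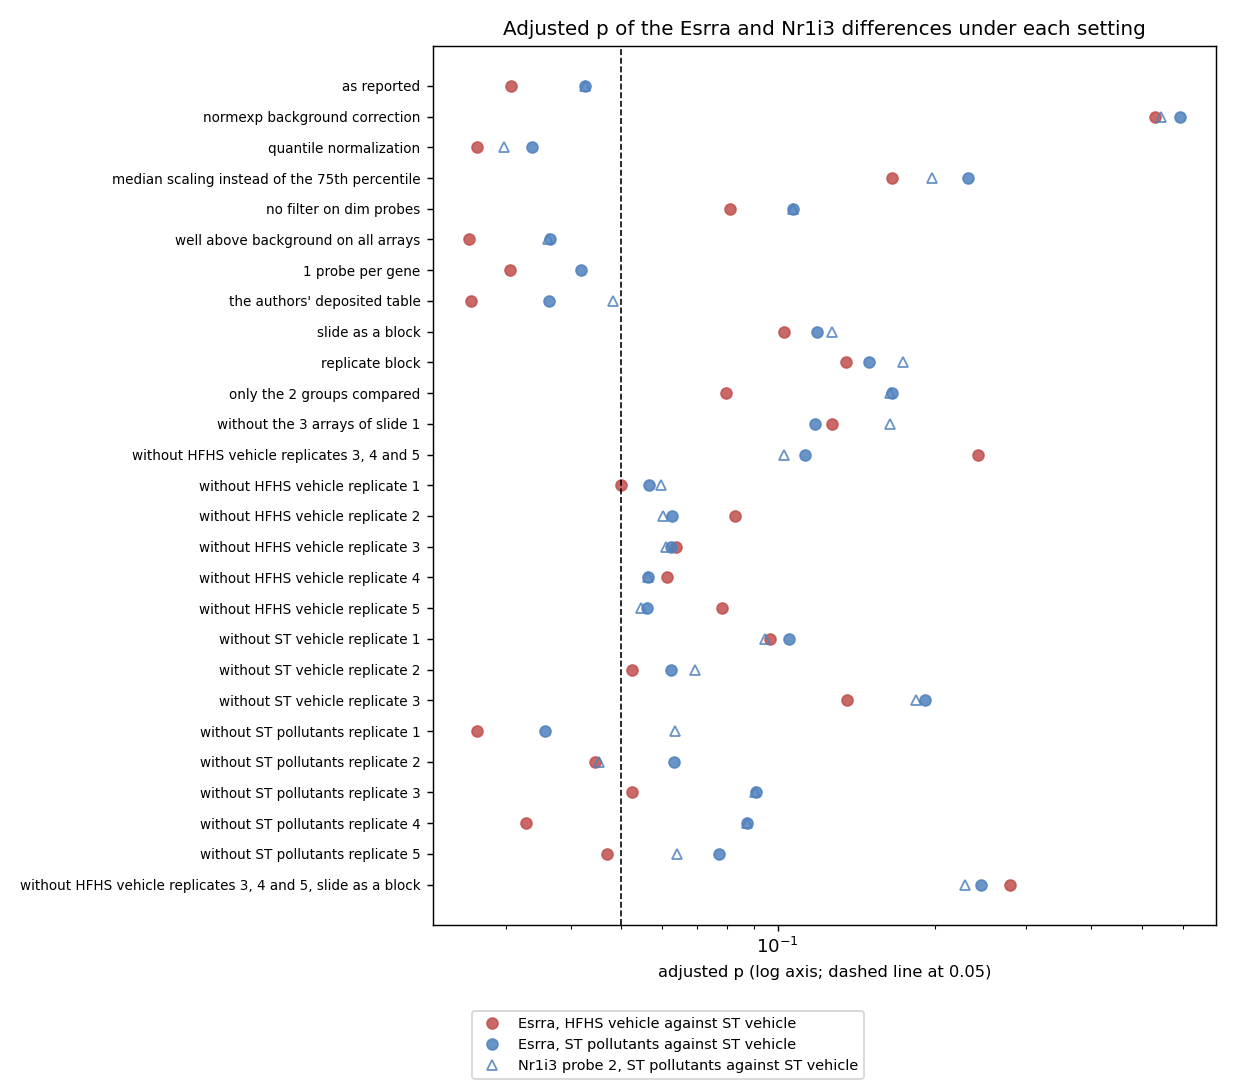
Adjusted p (log axis, dashed line at 0.05) of the 3 receptor differences that passed, as reported and under each of 26 other settings, for Esrra in both comparisons with ST vehicle and for the second Nr1i3 probe in pollutants. Adjusted p lies to the left of the line for Esrra in HFHS under 9 settings, for Esrra in pollutants under 5 and for Nr1i3 under 4 of the 25 that test its second probe.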

How the data were processed

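Per the file headers, the authors deposited 1 scanner file per array, with spot intensity on a linear scale from Agilent Feature Extraction 11.5.1.1, and flags (other) for background, saturation and outliers. The deposited table of log2 values for 26082 probes came from the authors, whose processing notes as submitters name limma, with a scaling not given in the sources used here, and served as an alternative. It holds 14 of the 15 receptor probes, and 13 of 13 columns matched their own array best.

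Here log2 of the processed signal was taken, control spots and flagged outlier spots were left out, spots of a probe were averaged and the 75th percentile of its array was taken off. A probe was tested where all arrays of 1 group or more had it well above background. limma 3.58.1 (R 4.3.3) fitted the 3 groups together in a two-sided test, and p-values were adjusted over the 25030 probes after Benjamini and Hochberg. The pipeline was tested on simulated data. The number of arrays limits the precision.

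The receptors and lists were chosen with earlier results of these data known. Named genes were all probes of the 10 members, called list genes (up to 4 per list and comparison), genes fixed with the lists (some are not reported here), and for each member the 3 genes of highest r. Alternatives were other background corrections, scalings, filters, blocks and left-out arrays. The reported fit has no slide term. Slide entered as an alternative, a block, because arrays of 1 slide deviated together on most but not all slides (consensus correlation 0.265). Within slides, r was 0.13 to 0.55 between ST vehicle and the other groups and -0.0193 to 0.498 between HFHS and pollutants. Replicate numbers were not taken to pair the mice. Number 3, whose ST vehicle array lies on another slide than the rest of that number, gave -0.139 and -0.164. Between HFHS and pollutants replicate and slide numbers coincide, so pairing and slide cannot be told apart there, and 1 ST vehicle array cannot settle it. Motifs were counted with Python 3.11.15.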

Additional observations from a re-analysis of the deposited data

Results flagged for a closer look

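Ppard on pollutant replicate 4 stood apart from its group, at a log2 level of -0.44 with the other 4 pollutant arrays at -0.68 to -0.64. Its gap to the nearest of them took 0.852 of the group's range, above Dixon's critical value of 0.71 for 5 samples. It was the 1 group past that value among 30 tested, and chance alone flags about 1 in 20 groups. Without that array the Ppard difference between pollutants and ST vehicle was -0.06.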

How the results depend on the processing

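The sign of the called receptor differences held under all 26 alternatives for Esrra and under the 25 that test the second Nr1i3 probe, but the calls did not. The count of called probes in HFHS and in pollutants against ST vehicle was 0 and 0 with normexp background correction, median scaling, no filter on dim probes, slide as a block, only the 2 groups compared, without slide 1, without HFHS replicates 3, 4 and 5, and without those arrays with slide as a block, a setting chosen after seeing the data. The replicate block gave 0 and 0 as well, with Esrra at 0.54 and 0.49 (adjusted p = 0.135 and 0.15) and Nr1i3 at 0.50 (0.174). With 1 probe per gene the pollutant count was 1. Leaving out 1 array at a time gave 0 to 1 in each of the 3 comparisons; Nr1i3 passed in HFHS against pollutants without ST vehicle replicate 3 and, with a count of 1, under quantile normalization. Esrra differences ranged from 0.41 to 0.64 in HFHS (adjusted p 0.0255 to 0.53) and 0.41 to 0.60 in pollutants (0.0337 to 0.592), and Nr1i3 from 0.41 to 0.60 (0.0298 to 0.545).

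Of 26 alternatives, the calls of target genes held for Alas1 in 19 (HFHS) and 25 (pollutants), Cyp7a1 in 20, Mogat1 in 10, Cd36 in 6, Ces2a in 15 and, against pollutants, 25, Acot4 in 12, Slc22a5 in 7 and, between HFHS and pollutants, 10, Por in 9, Pnpla2 in 24, Eci2 in 5, Lpin1 in 24 and Pck1 in 25.

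Over all probes the called number for HFHS, pollutants and HFHS against pollutants was 157, 246 and 857 as reported, 46, 13 and 269 with normexp, 89, 60 and 354 with median scaling, 69, 58 and 395 with no filter, 106, 84 and 917 with slide as a block, 62, 62 and 581 with the replicate block, 27, 47 and 581 with only the 2 groups compared, 2, 23 and 15 without slide 1, 7, 116 and 295 without HFHS replicates 3, 4 and 5, and 0, 0 and 231 with slide as a block as well (2785 and 2971 at an unadjusted p under 0.05 for the zeros). With normexp the median of all probes was 0.117 in HFHS against ST vehicle and 0.12 in HFHS against pollutants, where it was -0.0178 and -0.00427 as reported.

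Of 45 receptor differences, 15 changed sign under some setting, none of them called. With normexp, Rxrb was at -0.031 in HFHS against ST vehicle, and in HFHS against pollutants the first Rxra probe was at 0.031, Esrra at -0.076, Rxrb at -0.076, the second Ppargc1a probe at 0.22 and the first Ppara probe at -0.15 and the last Ppara probe at -0.093. With slide as a block the second Ppargc1a probe was at -0.0029 in HFHS, and without slide 1 Rxrb was at -0.0023 in pollutants, both against ST vehicle. Without HFHS replicates 3, 4 and 5 the first Ppargc1a and Rxra probes were at 0.12 and 0.10 against pollutants. With slide as a block as well they were at 0.38 and 0.052, the first Ppara probe at -0.063, and the second Ppara probe at -0.0074 in HFHS against ST vehicle. Leaving out 1 array gave, in HFHS against ST vehicle, -0.078 to 0.18 (second Ppargc1a), -0.35 to 0.059 (Nr1i2), -0.0063 to 0.17 (first Rxra) and -0.13 to 0.016 (Ppard), and in pollutants -0.064 to 0.078 (Ppard). In HFHS against pollutants it gave -0.0073 to 0.0598 (Rxrb), -0.077 to 0.015 (first Rxra), -0.19 to 0.027 (first Ppargc1a), -0.037 to 0.068 (first Ppara), -0.011 to 0.072 (last Ppara) and -0.00058 to 0.10 (Esrra). The cause of these changes was not tested.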
